A study of Mus musculus with 5 samples.

Results

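The 47 genes described here are cell cycle genes, taken by name from a fixed list of cyclins, cyclin-dependent kinases (CDKs) and their inhibitors, cell cycle transcription factors, DNA replication factors, mitotic regulators and the proliferation markers Mki67 and Top2a. All 47 were found among the 21667 genes of the deposited table. The study applied forskolin or cAMP to skin and asked how Creb, a transcription factor that acts downstream of cAMP, could speed up the hair cycle. RNA was sequenced from the total epidermis of wildtype C57BL/6 male mice at postnatal day 49, with backs shaved. Forskolin, which activates adenylyl cyclase, was used at 10 µM in 2 libraries, and cAMP itself at 1.325 mM in 2 libraries. Both were given 3 times over 5 days in a lotion of DMSO and PLO. The control was 1 library labelled untreated, and the labels do not say whether its skin received the lotion, so an effect of the lotion and one of the compound cannot be told apart. Whether 2 libraries of one treatment stem from different animals is not stated either. The p-values therefore rest on a spread between libraries that may be only technical.

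A cell enters the cycle when D-type cyclins with Cdk4 or Cdk6, and then cyclin E with Cdk2, release E2F transcription factors from the retinoblastoma proteins. E2F factors switch on the genes of DNA replication. Later, the MuvB complex with Mybl2 (B-Myb) and Foxm1 switches on the mitotic genes, many of them through a promoter element called the CHR. In the epidermis most cycling cells lie in the basal layer, marked by Krt5 and Krt14, and in growing hair follicles. In bulk tissue, fewer cycling cells and less RNA per cell cannot be told apart.

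Promoter windows of 250 bases before to 50 after the start were read from RefSeq (GRCm38.p6) for 37 of the members, in 40 windows. Foxm1, Cdkn1c, Ccnd1, Aurkb, Ccna2, Ccnd2, Kif20a, Ccne2, Cdc25c and Mcm4 were not in the promoter table used. The windows were searched on both strands. An E2F site was one of TTTCGCGC, TTTGGCGC, TTTCCCGC and TTTGCCGC. The CHR was read as TTTGAA or TTCGAA. The CCAAT box was read as the letters of its name. The cAMP response element (CRE), to which Creb binds, was TGACGTCA. Its core TGACG, which every CRE also holds, was counted on its own, and E2F matches may overlap one another or those of other motifs. An E2F site stood in 8 of the 40 windows (20%), against 2.26% of all 32851 promoter windows of the same length. A CHR stood in 16 of 40 (40%), against 19.2% of all windows, and a CCAAT box in 28 of 40 (70%), against 37.4%. The CRE was held by 2 of 40 windows (5%), those of Mcm5 and Cenpe, against 1.79% of all windows. The core was held by 17 of 40 (42.5%), against 20.8%.

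The 2 kinds of element were spread by role. A CHR together with a CCAAT box was held by 12 of the 15 windows of mitotic genes and by 2 of the 12 windows of DNA replication genes, against 7.52% of all windows. An E2F site was held by 6 of the 12 replication windows and by 1 of the 15 mitotic windows. The following 5 windows show these arrangements for genes that recur in the results. Ccnb2 and Cenpf stand for the mitotic genes, Mki67 for the proliferation markers, Mcm5 for the replication genes and Cdk6 for the G1 kinases. All are written 5′ to 3′ on the gene's strand, with matches to the searched motifs, in either orientation, in capitals. The window of Ccnb2 is chr9:70421505-70421804 on the minus strand, that of Cenpf chr1:189688037-189688336 on the minus strand, that of Mki67 chr7:135716330-135716629 on the minus strand, that of Mcm5 chr8:75109259-75109558 on the plus strand and that of Cdk6 chr5:3343643-3343942 on the plus strand.
Ccnb2: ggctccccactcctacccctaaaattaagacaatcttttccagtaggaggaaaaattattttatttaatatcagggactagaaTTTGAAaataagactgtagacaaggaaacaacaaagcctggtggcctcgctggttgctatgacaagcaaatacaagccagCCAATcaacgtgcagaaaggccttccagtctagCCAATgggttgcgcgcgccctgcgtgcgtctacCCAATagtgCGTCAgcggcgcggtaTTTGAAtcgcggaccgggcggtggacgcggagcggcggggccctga
Cenpf: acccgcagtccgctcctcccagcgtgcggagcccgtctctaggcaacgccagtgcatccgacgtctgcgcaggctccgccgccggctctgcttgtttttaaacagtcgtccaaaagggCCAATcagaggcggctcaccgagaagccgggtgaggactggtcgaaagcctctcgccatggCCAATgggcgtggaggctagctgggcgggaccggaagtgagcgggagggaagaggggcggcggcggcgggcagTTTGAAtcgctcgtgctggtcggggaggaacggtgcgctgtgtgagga
Mki67: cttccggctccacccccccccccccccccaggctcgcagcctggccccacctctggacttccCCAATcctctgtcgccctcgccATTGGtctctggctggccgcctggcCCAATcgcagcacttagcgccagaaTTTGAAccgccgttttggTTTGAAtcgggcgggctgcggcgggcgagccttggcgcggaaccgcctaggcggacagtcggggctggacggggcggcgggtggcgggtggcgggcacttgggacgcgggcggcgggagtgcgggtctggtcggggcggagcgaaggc
Mcm5: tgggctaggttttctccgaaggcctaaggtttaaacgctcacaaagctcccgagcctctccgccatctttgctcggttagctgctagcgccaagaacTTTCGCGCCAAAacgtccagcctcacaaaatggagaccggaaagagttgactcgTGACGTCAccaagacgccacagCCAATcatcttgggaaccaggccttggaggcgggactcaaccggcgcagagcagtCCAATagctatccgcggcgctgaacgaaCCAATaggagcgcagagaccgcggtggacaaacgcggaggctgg
Cdk6: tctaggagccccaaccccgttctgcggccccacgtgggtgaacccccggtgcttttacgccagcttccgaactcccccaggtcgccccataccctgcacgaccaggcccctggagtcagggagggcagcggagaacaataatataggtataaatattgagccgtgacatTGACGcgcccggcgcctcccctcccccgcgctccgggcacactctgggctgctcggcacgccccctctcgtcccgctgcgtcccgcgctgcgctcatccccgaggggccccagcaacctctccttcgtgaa
Ccnb2 held 2 CHR, 3 CCAAT boxes and 1 CRE core, Cenpf 1 CHR and 2 CCAAT boxes, and Mki67 2 CHR and 3 CCAAT boxes. The run of capitals nearest the 5′ end in Mcm5 is made of 2 overlapping E2F matches in opposite orientation, and its CRE follows it. The Cdk6 window held the CRE core and no other searched motif. These are matches of letters and do not show that a factor was bound.

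The libraries held an estimated 34200000 to 51700000 reads. The control stood apart from every treated library in make-up: mitochondrially encoded genes took 45.6% to 50.7% of the listed values with forskolin and 43.1% to 58.0% with cAMP, against 69.3% in the control. Nuclear genes, leaving out pseudogenes and rRNA, made up 31.4% and 34.8% with forskolin and 38.0% and 25.9% with cAMP, against 7.9% in the control. The deposited values are in CPM, reads scaled to a library's total. On this scale, across the 13764 genes tested, the median log2 change was 1.69 with forskolin and 1.66 with cAMP. Values were therefore also rescaled with median-of-ratios size factors (1.41 and 1.31 for forskolin, 1.64 and 1.12 for cAMP, 0.325 for the control), which left median changes of 0.21 and 0.20. Single genes were also missing from the control: of genes expected there at 20 reads or more from the rescaled treated libraries, 8.43% had under 1 read, against 0.368% to 3.76% in the treated libraries. Among the 46 members so expected, 7 had under 1 read in the control and 0 in any treated library. With 1 control, its part in the results below was not tested, and no value can be given without it.

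As deposited, the summed level of the 47 members was 1062 and 973.1 CPM with forskolin and 1177 and 775.1 CPM with cAMP, against 176 CPM in the control. As a share of the nuclear values it was 0.366% and 0.348% with forskolin and 0.327% and 0.321% with cAMP, against 0.244% in the control. All 4 treated libraries stood above the control for 46 of the 47 members, the exception being Ccnd1, as they did for 88.7% of all tested genes. A gene was tested when at least 2 libraries reached 1 CPM, with limma on log2(CPM + 1), 2-sided, and called at an adjusted p under 0.05 over all tested genes. In all, 46 members were tested and Cdkn1c was not. Of these, 14 were under 1 CPM in the control and so passed only through the treated libraries, which means they had to differ. They were Bub1, Ccnb2, Ccne1, Cdc6, Cenpf, Foxm1, Kif20a, Bub1b, Ccne2, Cdc20, Cdc25c, Cdk6, Cdt1 and Mybl2. Their p-values and folds below are descriptions and give no support for a change. The comparisons of forskolin and of cAMP with the control share the control library, so the values are given side by side and their likeness is not used as a result.

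With forskolin, 43 of 46 members rose as deposited and 0 fell, beside 66.3% of all tested genes that rose and 0.341% that fell. With cAMP, 41 rose and 0 fell, beside 65.1% and 0.436%. After median-of-ratios scaling, 15 members rose and 1 fell with forskolin, beside 14.9% and 6.79% of all tested genes, and 14 rose and 1 fell with cAMP, beside 15.4% and 7.23%. The members' median log2 change on that scale was 0.73 with forskolin and 0.77 with cAMP. Of all calls, 99.5% with forskolin and 99.3% with cAMP were rises as deposited, and 68.7% and 68.1% after rescaling. Without the filter on low values the rescaled fit called 7 of 47 members higher in each comparison, beside 3.52% of all genes with forskolin and 4.37% with cAMP.

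Among the members, the rescaled calls fell mostly on genes that the control hardly held and that had to differ to be tested. The share of all tested genes called at the same control levels was not computed. This split is therefore a description and is not shown to be particular to the members. Of the 7 tested members with under 1 read in the control, 6 were called higher with forskolin and 7 with cAMP. Of the 7 with at least 1 read and under 1 CPM, 5 were called with forskolin and 4 with cAMP. Of the 32 at 1 CPM or more in the control, 4 were called higher with forskolin (Ccnd3, Mcm4, Mki67 and Top2a) and 3 with cAMP (Mcm3, Mcm4 and Mki67). The members called higher in both comparisons, which share the control, were Bub1, Bub1b, Ccnb2, Cdc20, Cdc6, Cdk6, Cenpf, Foxm1, Kif20a, Mcm4 and Mki67. Of these, only Mcm4 and Mki67 were at 1 CPM or more in the control. The share of all tested genes called in both was not computed, so this list is a description. Without forskolin replicate 1, the members called higher with forskolin numbered 27 as deposited, beside 38.2% of all tested genes, and 10 after rescaling, beside 12.8%. Without cAMP replicate 1, those called higher with cAMP after rescaling numbered 9, beside 9.95%. Among the rescaled calls lost without the filter on low values were those of Top2a, Ccnd3, Bub1b, Cdc20 and Cdt1 with forskolin (adjusted p of 0.0508 to 0.156) and of Cdc20, Bub1b and Mcm3 with cAMP (0.0544 to 0.118).

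**Figure D1:**
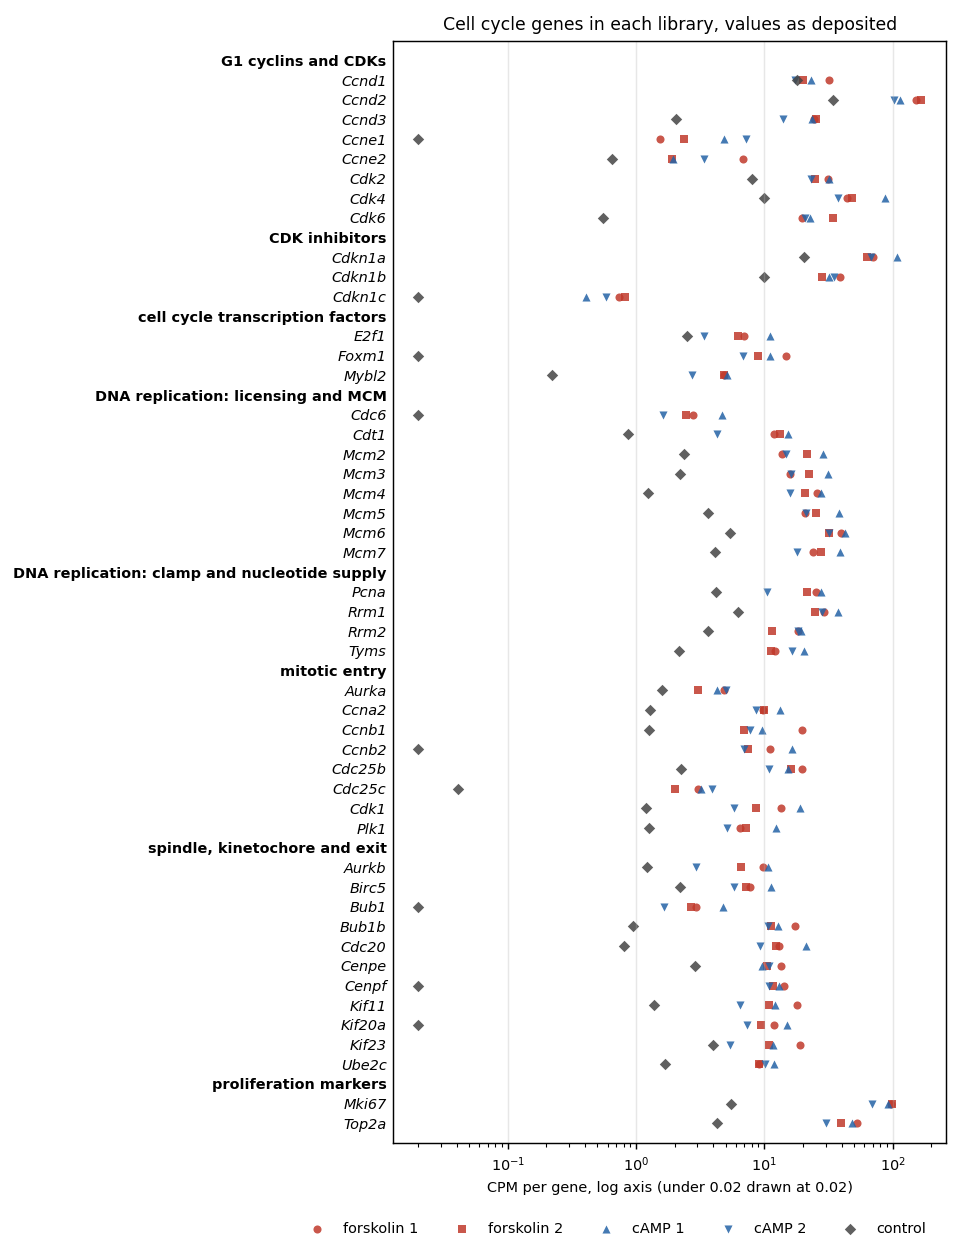
Level of each of the 47 members in each of the 5 libraries, in CPM as deposited on a log axis, grouped by role; red circles and squares are forskolin 1 and 2, blue triangles cAMP 1 and 2, and grey diamonds the control. The control lies left of the treated libraries for every gene except Ccnd1, and the 8 members with under 1 read in it are drawn at the left edge.

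**Figure D2:**
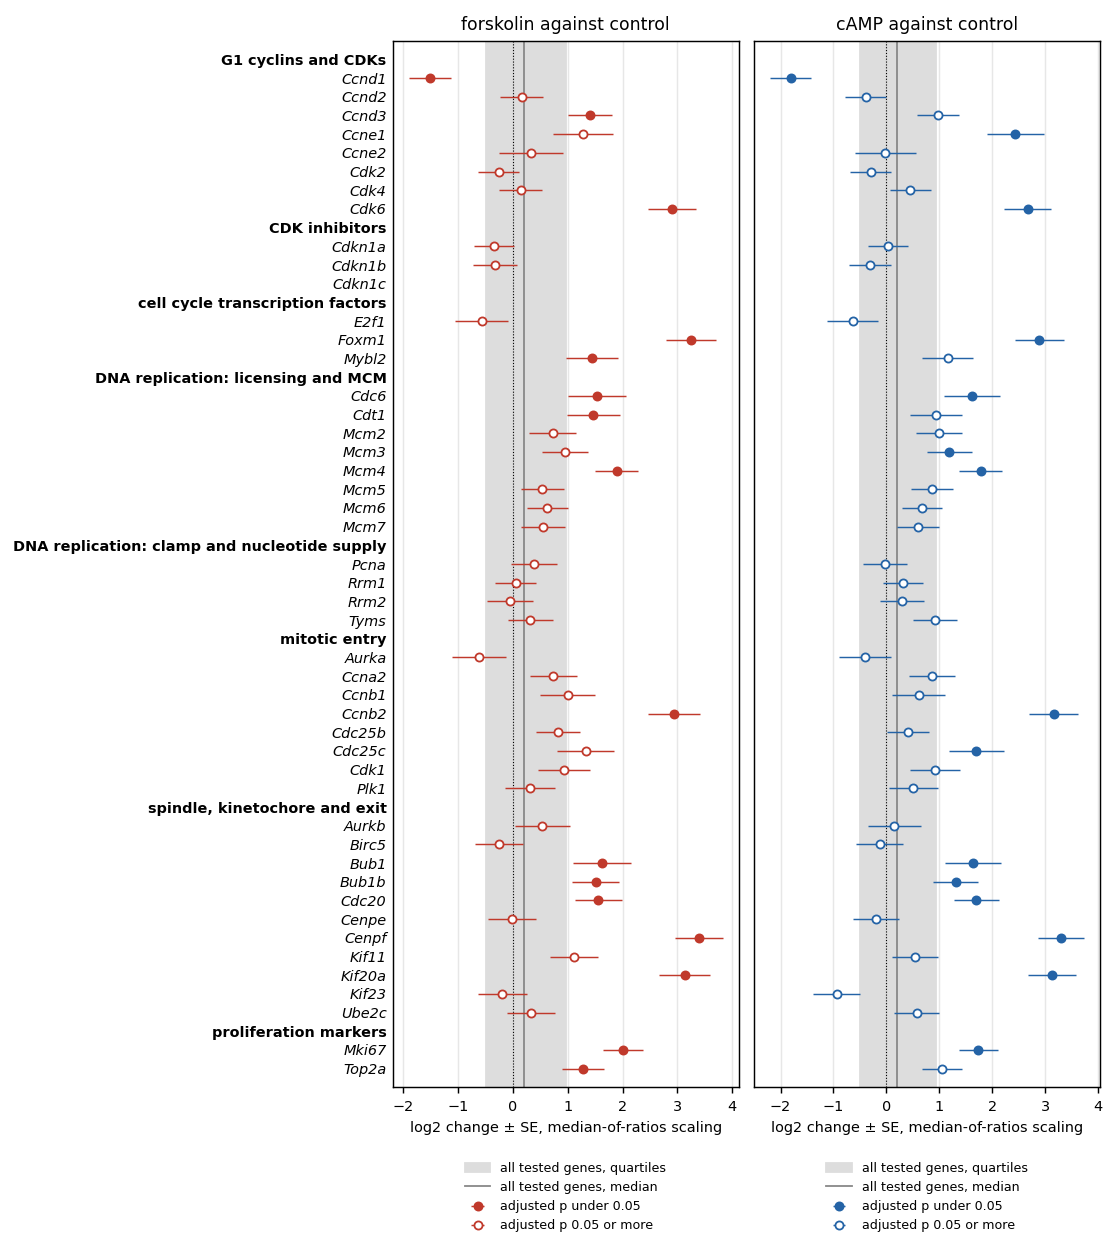
Log2 change ± SE of the 46 tested members against the control after median-of-ratios scaling, with forskolin (left) and cAMP (right); filled points have an adjusted p under 0.05, and the grey band and line give the quartiles and median of all 13764 tested genes. Cenpf, Foxm1, Kif20a, Ccnb2 and Cdk6 lie farthest to the right in the forskolin panel, and Ccnd1 is the one filled point to the left in each panel.

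Mki67, the nuclear protein Ki-67 that coats mitotic chromosomes and is present in cycling cells, is the usual marker of proliferation. Mki67 (ENSMUSG00000031004, chromosome 7, 135689788 to 135716379) had 96.5 and 98.64 CPM with forskolin and 91.83 and 69.37 CPM with cAMP, against 5.528 CPM in the control. The treated libraries lay well above the control, and the forskolin pair lay above the cAMP pair. The log2 change of Mki67 as deposited was 3.92 ± 0.58 (SE) with forskolin (limma adjusted p = 5.22e-09) and 3.63 ± 0.58 with cAMP (adjusted p = 3.98e-08). After rescaling, Mki67 stood at 68.2 and 75.2 with forskolin and 56.1 and 62.2 with cAMP, against 17 in the control. It rose by 2.01 ± 0.37 (adjusted p = 0.00112) and by 1.74 ± 0.37 (adjusted p = 0.00277) on the log2 scale, so the call was kept on both scales. Top2a, the topoisomerase that untangles sister chromatids, had 52.58 and 39.7 CPM with forskolin and 48.21 and 30.4 CPM with cAMP, against 4.297 CPM in the control. Its rescaled log2 change was 1.28 ± 0.38 with forskolin (adjusted p = 0.0223) and 1.05 ± 0.38 with cAMP, which missed the threshold (adjusted p = 0.0536). The forskolin call of Top2a was lost without forskolin replicate 1 (log2 change 1.14, adjusted p = 0.0794).

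Among the G1 cyclins and CDKs, which drive entry into S phase, 7 of 8 rose with forskolin and 6 of 8 with cAMP as deposited. These counts stand beside 66.3% and 65.1% of all tested genes. After rescaling, Ccnd3 and Cdk6 were called higher with forskolin, Ccne1 and Cdk6 with cAMP, and Ccnd1 was called lower with both. On that scale 14.9% and 15.4% of all tested genes were called higher, and 6.79% and 7.23% lower. Cdk6, one of the pair of kinases that bind D-type cyclins, had 19.83 and 34.21 CPM with forskolin and 22.83 and 20.87 CPM with cAMP, against 0.5507 CPM in the control. After rescaling its log2 change was 2.90 ± 0.44 with forskolin (adjusted p = 0.000241) and 2.67 ± 0.44 with cAMP (adjusted p = 0.000372). Its partner kinase Cdk4 had 43.75 and 48.13 CPM with forskolin and 86.48 and 37.22 CPM with cAMP, against 9.912 CPM in the control. Rescaled, Cdk4 stood at 30.9 and 36.7 with forskolin and 52.9 and 33.4 with cAMP, against 30.5 in the control, so all 4 treated libraries lay above it, forskolin 1 by the least and cAMP 1 by the most. Cdk4 was not called on that scale. With each transcript divided by its own length and summed, Cdk4 had the highest level per kilobase in every library. It was at 59.5 and 66.6 CPM per kilobase with forskolin, 118 and 49.8 with cAMP and 15.2 in the control. Short transcripts annotated as retaining an intron weigh heavily in this sum. In forskolin 1, one of 468 bases held 10.33 CPM and one of 574 bases held 8.824 CPM. The rank may therefore not be that of the coding transcripts. Part of the reads of Cdk4 may belong to Tspan31, which overlaps it by 641 exon bases on the opposite strand. The strand setting of the counting was not given in the sources used here.

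Ccnd1, cyclin D1, which links growth signals to Cdk4 and Cdk6, was the one member called lower on the rescaled values. It had 31.79 and 20.07 CPM with forskolin and 23.24 and 17.39 CPM with cAMP, against 17.82 CPM in the control. Of all 47 members it alone had a treated library, cAMP 2, below the control. As deposited its log2 change of 0.48 ± 0.57 with forskolin (adjusted p = 0.439) and of 0.17 ± 0.57 with cAMP (adjusted p = 0.795) did not pass the threshold. Rescaled, Ccnd1 stood at 22.5 and 15.3 with forskolin and 14.2 and 15.6 with cAMP, against 54.8 in the control, with no overlap. On that scale it fell by 1.51 on the log2 scale with forskolin (SE 0.39, adjusted p = 0.0115) and by 1.81 with cAMP (SE 0.39, adjusted p = 0.00319). The forskolin call was lost without forskolin replicate 2 (log2 change -1.25, adjusted p = 0.0608) and without the filter on low values (adjusted p = 0.0564). Ccnd1 overlaps LTO1 by 818 exon bases on the opposite strand.

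Ccnd2, cyclin D2, had 152.7 and 167.1 CPM with forskolin and 113.6 and 103.4 CPM with cAMP, against 34.19 CPM in the control. Rescaled it stood at 108 and 127 with forskolin and 69.5 and 92.7 with cAMP, against 105 in the control, which lay inside the treated range. Ccnd3, cyclin D3, had 24.57 and 25.5 CPM with forskolin and 23.48 and 13.89 CPM with cAMP, against 2.065 CPM in the control, and its rescaled log2 change with forskolin was 1.40 ± 0.40 (adjusted p = 0.0181). That call was lost without forskolin replicate 2 (1.32, adjusted p = 0.065). Ccne1, cyclin E1, which activates Cdk2 at the start of S phase, had 1.546 and 2.385 CPM with forskolin and 4.819 and 7.168 CPM with cAMP, with under 1 read in the control. Its cAMP libraries both lay above the forskolin ones.

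The CDK inhibitors Cdkn1a (p21) and Cdkn1b (p27), which hold CDKs in check, were called higher as deposited and were not called after rescaling. Cdkn1a had 70.3 and 63.65 CPM with forskolin and 108.6 and 68.14 CPM with cAMP, against 20.25 CPM in the control. Cdkn1b had 38.83 and 27.95 CPM with forskolin and 31.85 and 34.67 CPM with cAMP, against 10 CPM in the control. The deposited log2 change of Cdkn1a was 1.68 ± 0.58 with forskolin (adjusted p = 0.00851) and 2.03 ± 0.58 with cAMP (adjusted p = 0.00152), and that of Cdkn1b 1.63 ± 0.57 (adjusted p = 0.00976) and 1.64 ± 0.57 (adjusted p = 0.00938). The forskolin calls of both were lost without either forskolin replicate, with adjusted p = 0.11 and 0.07 for Cdkn1a and 0.153 and 0.0519 for Cdkn1b. Rescaled, the log2 change of Cdkn1a was -0.34 ± 0.37 with forskolin (adjusted p = 0.527) and 0.03 ± 0.37 with cAMP (adjusted p = 0.959), and that of Cdkn1b -0.33 ± 0.40 (adjusted p = 0.567) and -0.31 ± 0.40 (adjusted p = 0.599). Cdkn1c (p57), the third member of the family, had 0.742 and 0.8273 CPM with forskolin and 0.4064 and 0.5852 CPM with cAMP, with under 1 read in the control where 7.7 would be expected, and was not tested.

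Of the 3 transcription factors, Foxm1, a forkhead factor of the mitotic genes, passed the filter only through the treated libraries, as did Mybl2. Foxm1 had 14.86 and 8.942 CPM with forskolin and 11.09 and 6.759 CPM with cAMP, with under 1 read in the control, where 121.1 reads would be expected from the treated libraries. Against a floor of 3 reads in the control (0.0607 CPM) the mean was at least 196-fold higher with forskolin and at least 147-fold higher with cAMP as deposited, for counting error only. These bounds are on the scale on which most tested genes lay above the control. Rescaled, its log2 change was 3.25 ± 0.46 with forskolin (adjusted p = 0.00014) and 2.89 ± 0.46 with cAMP (adjusted p = 0.000285). Mybl2, the B-Myb partner of MuvB, had 4.885 and 4.865 CPM with forskolin and 5.128 and 2.721 CPM with cAMP, against 0.2227 CPM in the control, and was called higher after rescaling with forskolin. E2f1, an activator of replication genes, had 6.995 and 6.283 CPM with forskolin and 11.02 and 3.394 CPM with cAMP, against 2.511 CPM in the control. E2f1 was not called on either scale, and its rescaled treated libraries, at 3.04 to 6.74, all lay below the control at 7.72.

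The licensing factors and the MCM helicase, which prepare and unwind origins of replication, all rose as deposited, 8 of 8 in each comparison. Of all tested genes, 66.3% rose with forskolin and 65.1% with cAMP. Rescaled, 3 of 8 were called higher with forskolin (Cdc6, Cdt1 and Mcm4) and 3 of 8 with cAMP (Cdc6, Mcm3 and Mcm4). The shares of all tested genes were 14.9% and 15.4%. All 8 lay above the median of all tested genes in both. Mcm4, a subunit of the helicase ring, had 25.52 and 20.58 CPM with forskolin and 27.65 and 15.77 CPM with cAMP, against 1.235 CPM in the control. Its rescaled log2 change was 1.89 ± 0.40 with forskolin (adjusted p = 0.00313) and 1.78 ± 0.40 with cAMP (adjusted p = 0.00414). The other 5 subunits had 13.73 to 39.81 CPM with forskolin and 14.8 to 42.45 CPM with cAMP, against 2.187 to 5.394 CPM in the control. Cdt1, which loads the helicase, had 11.81 and 13.32 CPM with forskolin and 15.33 and 4.242 CPM with cAMP, against 0.8707 CPM in the control. Its rescaled log2 change with forskolin was 1.47 ± 0.49 (adjusted p = 0.0379), a call lost without forskolin replicate 2 (1.35, adjusted p = 0.101). Cdc6, its partner in loading, had 2.762 and 2.462 CPM with forskolin and 4.711 and 1.609 CPM with cAMP, with under 1 read in the control.

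The sliding clamp Pcna and the nucleotide enzymes Rrm1, Rrm2 and Tyms also rose as deposited, 4 of 4 in each comparison, but 0 of 4 were called after rescaling. Beside this, 66.3% and 65.1% of all tested genes rose as deposited with forskolin and cAMP, and 14.9% and 15.4% after rescaling. Pcna had 25.4 and 21.61 CPM with forskolin and 27.83 and 10.51 CPM with cAMP, against 4.221 CPM in the control. Its processed copy Pcna-ps2 was listed at 30.1 and 14.0 CPM with forskolin and 33.1 and 22.9 CPM with cAMP, against 7.02 CPM in the control. Reads may be exchanged between the 2 loci, so the level of Pcna is uncertain. Rrm2, the regulated subunit of ribonucleotide reductase, had 18.45 and 11.5 CPM with forskolin and 19.37 and 18.2 CPM with cAMP, against 3.624 CPM in the control. Tyms, which makes thymidylate, had 12.14 and 11.25 CPM with forskolin and 20.22 and 16.5 CPM with cAMP, against 2.167 CPM in the control. Both cAMP libraries lay above both forskolin libraries for Tyms.

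Of the 8 genes of mitotic entry, 7 rose in each comparison as deposited, Aurka being the exception, beside 66.3% and 65.1% of all tested genes. Rescaled, 1 was called higher with forskolin (Ccnb2) and 2 with cAMP (Ccnb2 and Cdc25c), beside 14.9% and 15.4%. Ccnb2, cyclin B2, had 11.11 and 7.406 CPM with forskolin and 16.47 and 6.934 CPM with cAMP, with under 1 read in the control, where 119.6 would be expected. Its rescaled log2 change was 2.94 ± 0.47 with forskolin (adjusted p = 0.000395) and 3.16 ± 0.47 with cAMP (adjusted p = 0.000157). Its close relative Ccnb1, cyclin B1, which has the same partner Cdk1, was listed in the control: it had 19.71 and 7.004 CPM with forskolin and 9.61 and 7.799 CPM with cAMP, against 1.255 CPM in the control. Cdk1 itself had 13.44 and 8.575 CPM with forskolin and 18.84 and 5.822 CPM with cAMP, against 1.195 CPM in the control, and neither it nor Ccnb1 was called after rescaling. The control thus listed reads of Cdk1 and Ccnb1, and under 1 read of Ccnb2. Of the control's Ccnb1, 0.9163 CPM was assigned to a transcript annotated as retaining an intron. Its Cdk1, at 1.195 CPM, was assigned to a protein-coding transcript. Cdc25b, a phosphatase that activates Cdk1, had 19.68 and 16.06 CPM with forskolin and 15.42 and 10.8 CPM with cAMP, against 2.26 CPM in the control. Its relative Cdc25c was at 2.01 to 3.921 CPM in the treated libraries, against 0.04069 CPM, or 2 reads, in the control.

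The genes of the spindle, the kinetochore and mitotic exit rose as deposited in 11 of 11 cases with forskolin and 10 of 11 with cAMP, Kif23 being the exception. The shares of all tested genes were 66.3% and 65.1%. Rescaled, the same 5 of 11 were called in both, namely Bub1, Bub1b, Cdc20, Cenpf and Kif20a, beside 14.9% and 15.4% of all tested genes. Cenpf, a large kinetochore protein, had 14.14 and 11.75 CPM with forskolin and 13.08 and 10.94 CPM with cAMP, with under 1 read in the control, where 147.6 would be expected. The 4 treated libraries lay close together, and the mean was at least 213-fold higher with forskolin and at least 198-fold higher with cAMP as deposited against the floor of 3 reads. The limits given for the bounds of Foxm1 hold here too. Rescaled, its log2 change was 3.39 ± 0.44 with forskolin and 3.30 ± 0.44 with cAMP, with adjusted p = 7.73e-05 and 5.61e-05. Kif20a, a kinesin of the central spindle, had 11.98 and 9.335 CPM with forskolin and 14.95 and 7.285 CPM with cAMP, with under 1 read in the control. Its rescaled log2 change was 3.13 ± 0.46 with forskolin (adjusted p = 0.00017) and 3.13 ± 0.46 with cAMP (adjusted p = 0.000125). Kif20a overlaps Cdc23 by 977 exon bases on the opposite strand.

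Bub1b and Cdc20, the spindle checkpoint kinase-like protein BubR1 and the activator of the anaphase-promoting complex, were low but present in the control. Bub1b had 17.21 and 11.21 CPM with forskolin and 12.87 and 10.77 CPM with cAMP, against 0.9517 CPM in the control. Cdc20 had 13.12 and 12.22 CPM with forskolin and 21.1 and 9.229 CPM with cAMP, against 0.8099 CPM in the control. Of the latter, 0.7034 CPM was assigned to a transcript not annotated as protein-coding. Rescaled, the log2 change of Bub1b was 1.51 ± 0.43 (adjusted p = 0.0189) with forskolin and 1.31 ± 0.43 (adjusted p = 0.036) with cAMP, and that of Cdc20 was 1.56 ± 0.43 (adjusted p = 0.0165) and 1.70 ± 0.43 (adjusted p = 0.00927). The forskolin call of Bub1b was lost without forskolin replicate 1 (adjusted p = 0.0948), and its cAMP call without either cAMP replicate (adjusted p = 0.0669 without cAMP replicate 1 and 0.114 without cAMP replicate 2). The cAMP call of Cdc20 was lost without cAMP replicate 1 (adjusted p = 0.0611). At the other end, Kif23, a kinesin of the dividing cell's midbody, had 18.96 and 10.87 CPM with forskolin and 11.65 and 5.354 CPM with cAMP, against 3.969 CPM in the control, and Birc5 (survivin), of the chromosomal passenger complex, had 7.77 and 7.225 CPM with forskolin and 11.32 and 5.852 CPM with cAMP, against 2.187 CPM. Rescaled, the control lay inside the treated range for both.

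Forskolin and cAMP, given at different doses, were also set against each other. Of the 46 tested members, 0 differed in limma at an adjusted p under 0.05, beside 0.378% of all tested genes, and 1 had an unadjusted p under 0.05. That gene was Ccne1, with a log2 difference, forskolin minus cAMP, of -1.23 ± 0.52 (limma adjusted p = 0.555). The 95% intervals of the differences reached from -2.26 to 1.72 over the members, reaching 0.92 to 1.04 to either side of the estimate, and only 6 lay wholly within 1 log2 unit of 0. For most members the data therefore allow a difference of more than 1 log2 unit. As deposited, the forskolin pair lay above the cAMP pair for 5 members (Ccnd2, Ccnd3, Cdc25b, Cdkn1c and Mki67), beside 16.7% of all tested genes, and below it for 4 (Ccne1, Cdc25c, Tyms and Ube2c), beside 17%. For the other 38 the pairs overlapped on that scale. Some members changed place after rescaling. Cdkn1a then stood at 49.7 and 48.5 with forskolin and 66.4 and 61.1 with cAMP, without overlap. Cdc25c stood at 2.16 and 1.53 with forskolin and 1.95 and 3.52 with cAMP, with overlap.

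**Figure D3:**
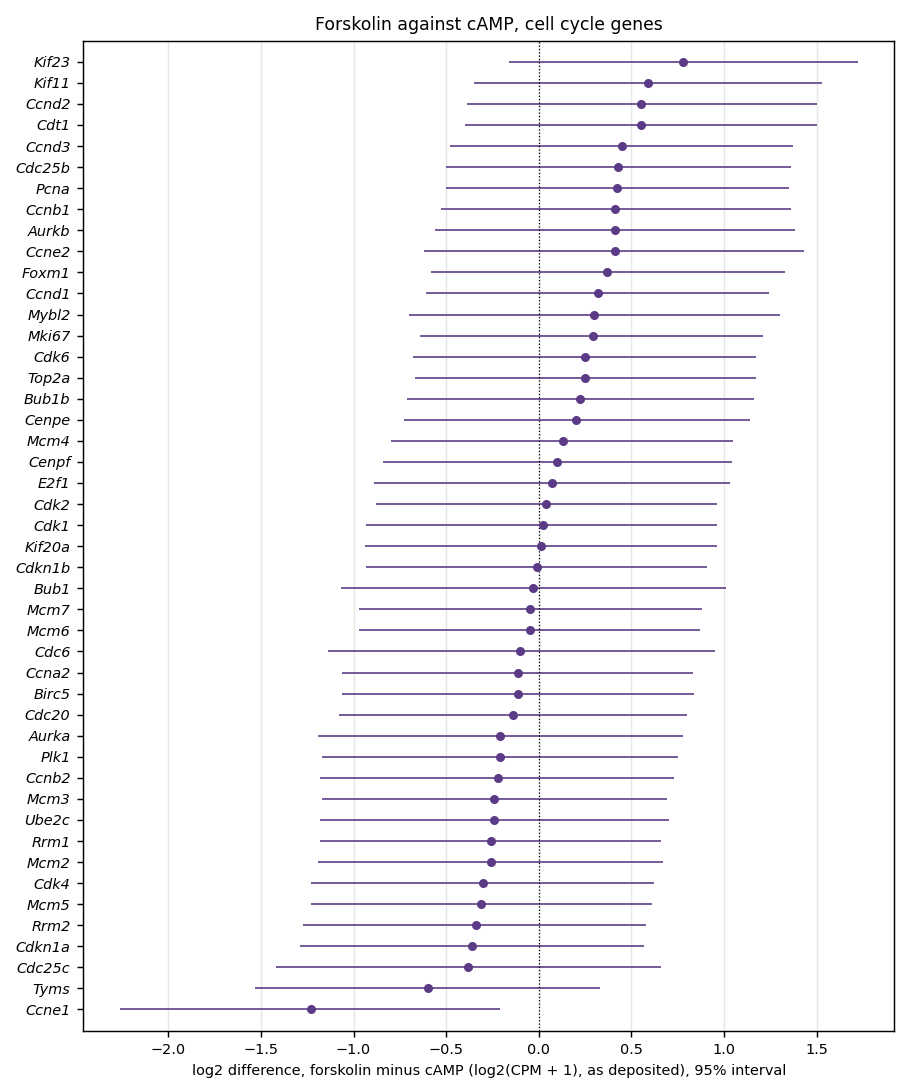
Log2 difference between forskolin and cAMP for the 46 tested members, in order of size, as deposited, with 95% intervals. All intervals except that of Ccne1, at -2.26 to -0.21, include 0.

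Within the cAMP pair, as deposited, replicate 1 was the highest treated library for 27 of 47 members, beside 46% of all tested genes, and replicate 2 the lowest for 29, beside 49.5%. The size factors of the pair were 1.64 and 1.12, and the order changed for some members after rescaling. Mcm6 had 42.45 and 31.95 CPM as deposited and stood at 26 and 28.6 rescaled.

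Ratios of genes within a library do not depend on how the library is scaled. Mki67 per 1000 CPM of the basal keratins Krt5 and Krt14 was 22.4 and 29.3 with forskolin and 21.2 and 37.3 with cAMP, against 6.86 in the control. The same ratio for the sum of all 47 members was 247 and 289 with forskolin and 271 and 417 with cAMP, against 218 in the control. Cdkn1a over Mki67 was 0.729 and 0.645 with forskolin and 1.18 and 0.982 with cAMP, against 3.66 in the control. Ccnd1 over Ccnd2 was 0.208 and 0.12 with forskolin and 0.205 and 0.168 with cAMP, against 0.521 in the control. Cdk6 over Cdk4 was 0.453 and 0.711 with forskolin and 0.264 and 0.561 with cAMP, against 0.0556 in the control. In each of these ratios the control lay outside the range of the 4 treated libraries, by little for the whole list and by more for the single genes. The single-gene ratios were not planned, and each uses Mki67, Ccnd1 or Cdk6, which were called after rescaling. Cdk6 also passed the filter only through the treated libraries. The control's place outside the range follows in part from this choice and gives no support for a change. The sum of 19 mitotic members over that of 12 replication members was 0.938 and 0.697 with forskolin and 0.683 and 0.687 with cAMP, against 0.664 in the control, so only forskolin 1 stood apart. With 1 control library these ratios are descriptions and were not tested.

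**Figure D4:**
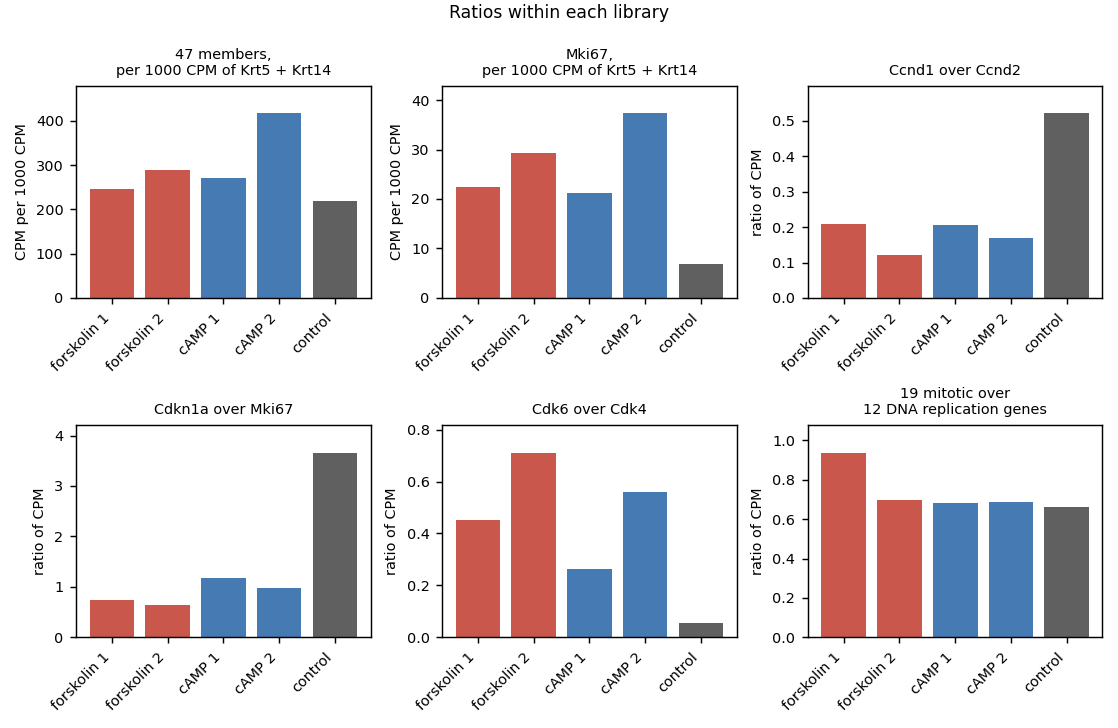
Ratios of CPM within each library, with 1 bar per library, forskolin in red, cAMP in blue and the control in grey. Ccnd1 over Ccnd2 and Cdkn1a over Mki67 are highest in the control, Mki67 per basal keratin and Cdk6 over Cdk4 are lowest there, and the ratio of mitotic to replication genes differs little except in forskolin 1, at 0.938.

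Marker lists of the epidermis and of other cells were summed in each library, as deposited and after rescaling. As deposited the control had the lowest sum of basal, outer root sheath, bulge, sebaceous, T cell, myeloid, melanocyte, hair matrix, skeletal muscle and endothelial markers, but the order changed with the scale for most of them. All 10 basal keratinocyte markers reached 1 CPM in every library. Their sum was 6334 and 4893 CPM with forskolin and 6038 and 2725 CPM with cAMP, against 1420 CPM in the control. Rescaled it was 4479 and 3731 with forskolin and 3692 and 2443 with cAMP, against 4367 in the control, which lay inside the treated range. The spinous and granular markers summed to 3060 and 2619 CPM with forskolin and 2980 and 1266 CPM with cAMP, against 1940 CPM in the control. Rescaled they summed to 2164 and 1997 with forskolin and 1822 and 1135 with cAMP, against 5965 in the control, which was then above every treated library.

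Other cells of the skin that can divide were measured in the same way. The 9 T cell markers, all at 1 CPM or more in every library, summed to 858 and 533.9 CPM with forskolin and 627.4 and 416.6 CPM with cAMP, against 134.5 CPM in the control. Langerhans and myeloid markers summed to 773.5 and 487.8 CPM with forskolin and 728.9 and 297.2 CPM with cAMP, against 111.3 CPM in the control. For both lists the control lay inside the treated range after rescaling, at 413.6 beside 373.5 to 606.8 for T cells and at 342.4 beside 266.5 to 547 for myeloid cells. Markers of the hair matrix and inner root sheath, parts of a growing follicle, summed to 91.36 and 97.84 CPM with forskolin and 86.32 and 76.96 CPM with cAMP, against 29.78 CPM in the control. Gata3 alone made up 82.72 and 88.27 CPM of these with forskolin and 71.52 and 70.53 CPM with cAMP, against 26 CPM in the control. Of the 13 markers listed, 2 and 5 reached 1 CPM with forskolin and 8 and 5 with cAMP, against 3 in the control. The hair keratin Krt35 was at or below 0.1342 CPM in every library and highest in the control. Krt71, of the inner root sheath, had 0.371 and 0.3446 CPM with forskolin and 1.858 and 1.17 CPM with cAMP, against 0.02025 CPM in the control. Hoxc13 had 0.4741 and 1.339 CPM with forskolin and 2.231 and 0.4389 CPM with cAMP, against 0.02025 CPM in the control. Rescaled, the hair matrix sum was 52.78 to 74.59 in the treated libraries, against 91.59 in the control.

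Sebaceous markers summed to 1772 and 2768 CPM with forskolin and 5989 and 6471 CPM with cAMP, against 190.7 CPM in the control. They were the one list whose control sum stayed below every treated library after rescaling, at 1253 and 2111 with forskolin and 3662 and 5802 with cAMP, against 586.5 in the control. The rescaled control sum lay inside the treated range for outer root sheath markers (294.8 to 496, against 330.2) and melanocyte markers (54.64 to 201, against 65.61). It lay above every treated library for bulge and germ (401.8 to 647.8, against 894.6), skeletal muscle (54.97 to 136.5, against 193.6), fibroblast (6.469 to 233.2, against 443.4), endothelial (0.8539 to 3.316, against 3.384) and erythroid markers (1.84 to 6.562, against 14.31). Single genes made up most of some control sums. As deposited, Krt15, also a basal marker, held 261.5 of the control's 290.9 CPM for bulge and germ. Hba-a2 held 4.136 of 4.652 CPM for erythroid markers, and Pecam1 1.1 of 1.1 CPM for endothelial markers. These 3 sums therefore do not speak for the other genes of their lists. The part of these cells in the members' levels was not tested.

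The wider pathway was followed in further lists of genes outside the 47. As deposited, 66.3% of all tested genes rose with forskolin and 65.1% with cAMP. Beside this, the E2F family and its pocket proteins rose in 13 of 17 cases with forskolin and 10 with cAMP, and other cyclins, CDKs and inhibitors in 12 and 17 of 19. Genes of the replication fork and origin rose in 28 and 25 of 36, the anaphase-promoting complex in 14 and 15 of 16, further spindle and kinetochore genes in 32 and 27 of 40, and checkpoint genes in 13 and 10 of 17. The list medians of the log2 change as deposited ran from 1.64 to 1.99 with forskolin and from 1.42 to 2.08 with cAMP, beside 1.69 and 1.66 over all tested genes.

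After rescaling far fewer were called, beside 14.9% of all tested genes higher and 6.79% lower with forskolin, and 15.4% and 7.23% with cAMP. With forskolin, 9 of the 40 spindle and kinetochore genes rose and 1 fell, and 5 of the 36 fork and origin genes rose and 2 fell. Of the 16 genes of the anaphase-promoting complex 3 rose, of the 19 other cyclins, CDKs or inhibitors 3, of the 17 checkpoint genes 2 and of the 17 genes of the E2F and pocket group 1, with 0 that fell. With cAMP, 9 spindle and kinetochore genes rose and 3 fell, 5 fork and origin genes rose and 3 fell, 2 genes of the anaphase-promoting complex rose and 1 fell, 2 checkpoint genes rose and 2 fell, 1 gene of the E2F and pocket group rose and 1 fell, and 3 other cyclins, CDKs or inhibitors rose. The rescaled list medians ran from -0.04 to 0.52 with forskolin and from -0.44 to 0.52 with cAMP, beside 0.21 and 0.20 over all tested genes. In the comparison of forskolin with cAMP, limma called 0 genes of any of these lists on either scale, with 0 to 2 a list at an unadjusted p under 0.05.

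The gene with the smallest p as deposited with forskolin is given for each list, so these genes were picked by their p. Uhrf1, Fzr1 and Lin37 were also under 1 CPM in the control. They passed the filter only through the treated libraries and had to differ, so their p-values are descriptions. Uhrf1, which keeps DNA methylation through replication, had 12.5 and 18.8 CPM with forskolin and 22.4 and 13.4 CPM with cAMP, against 0.525 CPM in the control. Its rescaled log2 change was 2.23 with forskolin (adjusted p = 0.00172) and 2.40 with cAMP (adjusted p = 0.000785). Fzr1, which directs the anaphase-promoting complex in G1, had 26.9 and 23.6 CPM with forskolin and 30.3 and 9.68 CPM with cAMP, against 0.992 CPM, with rescaled changes of 2.27 (adjusted p = 0.00196) and 1.76 (adjusted p = 0.00906). Lin37, a subunit of MuvB, had 8.49 and 9.03 CPM with forskolin and 12.6 and 7.05 CPM with cAMP, against 0.182 CPM, with rescaled changes of 2.25 (adjusted p = 0.0021) and 2.36 (adjusted p = 0.00121). Ncapd2, a subunit of condensin, had 25.1 and 28.5 CPM with forskolin and 30.5 and 13.7 CPM with cAMP, against 1.6 CPM, with rescaled changes of 1.80 (adjusted p = 0.00524) and 1.45 (adjusted p = 0.017). With cAMP the smallest p of that list was that of another condensin subunit, Ncaph, which like Cenpf had under 1 read in the control. Cdk9, a kinase of transcript elongation, had 46.9 and 33.8 CPM with forskolin and 49.5 and 26.6 CPM with cAMP, against 3.46 CPM, with rescaled changes of 1.38 (adjusted p = 0.018) and 1.26 (adjusted p = 0.0261). Btg2, an antiproliferative target of p53, had 39.8 and 23.4 CPM with forskolin and 42.8 and 27.9 CPM with cAMP, against 5.69 CPM. Its log2 change as deposited was 2.24 (adjusted p = 0.000462) and 2.41 (adjusted p = 0.00018), and it was not called after rescaling, at 0.34 (adjusted p = 0.55) and 0.52 (adjusted p = 0.356).

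Of the growth signal genes, 5 of 7 tested rose with forskolin and 4 of 7 with cAMP as deposited, beside 66.3% and 65.1% of all tested genes, and their median log2 changes of 1.60 and 1.51 lay below the 1.69 and 1.66 of all tested genes. After rescaling 1 of 7 rose with each, near the 14.9% and 15.4% of all tested genes. With forskolin 0 were lower and with cAMP 1, beside 6.79% and 7.23%. The riser was Myc, a driver of cell growth and of the G1 to S step. Myc had 64.9 and 49 CPM with forskolin and 56 and 34.8 CPM with cAMP, against 3.1 CPM in the control, with rescaled changes of 2.01 (adjusted p = 0.00131) and 1.68 (adjusted p = 0.00414).

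The members' reads came mostly from protein-coding transcripts, which held 90.7% and 91.5% of their CPM with forskolin and 87.6% and 89.3% with cAMP, against 85.7% in the control. Transcripts annotated as retaining an intron held 5.33% and 4.87% with forskolin and 6.77% and 6.36% with cAMP, against 9.26% in the control.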

How the data were processed

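RNA of total epidermis was sequenced in 5 libraries. The submitters' processing notes name STAR, Partek and bcl2fastq 2.17. Build, annotation, counting and strand settings: not given in the sources used here. What the authors deposited were normalized values of 59869 transcripts, taken as CPM from the numbers themselves, with column sums of 805255.8 to 947144.3 and a small offset in place of 0. If the offset stands for 0.0001 read, the columns held 34200000 to 51700000 reads. On that scale 59.6% to 75.7% of low gene sums lay within 0.1 of a whole read, so whole reads were not recovered and no count test was run. Of the transcripts, 98.3% were in GENCODE M21, which gave transcript lengths, types and overlaps.

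Transcripts were summed to 21667 genes. Those reaching 1 CPM in 2 or more libraries, 13764 in all, were fitted with limma 3.58.1 in R 4.3.3, with a trend, on log2(CPM + 1), which understates the change of low genes. All 5 libraries and 3 groups entered one fit without covariates, with 2-sided tests and Benjamini-Hochberg adjustment over all genes per comparison. The fit had 2 residual degrees of freedom, so a gene's spread came mostly from all genes, and the lone control was assumed to vary like the treated libraries. A second fit used size factors from the median of ratios over 11935 genes above 0.05 CPM in every library. Expected control reads are the treated libraries' mean after this scaling, brought to the control's scale. Single-gene tests are printed for the 12 members with the smallest p per comparison and for Mki67, Ccnd1, Cdkn1a and Cdkn1b, and for up to 4 genes of each other list. Members and lists were chosen with earlier results of these data known. Alternatives were other scalings, pseudocounts, filters, a robust fit, leaving out each treated library, a replicate block, and shorter promoter windows.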

Additional observations from a re-analysis of the deposited data

How the results depend on the processing

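Scaling decided most results against the control. With forskolin the 43 called members became 16 with median-of-ratios scaling and 16 with scaling to nuclear genes. Quantile normalization gave 10, and median-of-ratios scaling with no filter 7. Of all tested genes, 66.7% were called as deposited, then 21.7%, 22.3%, 13.8% and 9.05% in the same order, so that share fell too. With cAMP the 41 members became 15, 15, 9 and 8 in the same order. The share of all tested genes went from 65.6% to 22.7%, 22.5%, 14.9% and 10.9%. Leaving out 1 treated library gave 27 to 44 as deposited and 11 to 16 rescaled with forskolin, and 37 to 43 and 10 to 16 with cAMP (10 without cAMP replicate 1, 12 without cAMP replicate 2). Both rescaled variations, and rescaling without the filter, were chosen after seeing the data. The other pseudocounts (0.1 and 5), filters (none, 10 CPM) and the robust fit kept the deposited counts of 43 and 41 within 1.5 times. Quantile normalization also ended the calls of Bub1b, Cdc20 and Cdt1 with forskolin and of Bub1b and Mcm3 with cAMP (adjusted p of 0.0507 to 0.0988). The limits are the lone control, its make-up and the 2 residual degrees of freedom.

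Some genes changed sign. With forskolin, the log2 change under median-of-ratios scaling (with or without the filter), nuclear scaling and quantile normalization was -1.51, -1.43 and -1.50 for Ccnd1, -0.34, -0.26 and -0.26 for Cdkn1a, and -0.33, -0.25 and -0.36 for Cdkn1b. Rescaled with 1 library left out, it ran from -1.78 to -1.25 for Ccnd1, -0.35 to -0.32 for Cdkn1a and -0.51 to -0.16 for Cdkn1b. With cAMP it was -1.81, -1.79 and -1.80 for Ccnd1 and -0.31, -0.29 and -0.34 for Cdkn1b. With 1 library left out Ccnd1 ran from -0.03 to 0.37 as deposited and from -1.88 to -1.75 rescaled, and the rescaled change reached -0.63 for Cdkn1b (-0.31 without a forskolin library) and was -0.03 for Cdkn1a without cAMP replicate 1. The cause of these reversals was not tested.

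In forskolin against cAMP, 0 members were called under every setting. Signs turned with 1 library left out: Cdt1 (-0.27 to 1.37), Pcna (-0.24 to 1.09), Ccnb1 (-0.27 to 1.10), Aurkb (-0.37 to 1.19), Ccne2 (-0.31 to 1.12), Ccnd1 (-0.0033 to 0.64) and Cdkn1b (-0.24 to 0.22, and 0.03 with nuclear scaling). Rescaled, the turned values were -0.02 for Cdt1, -0.23 for Ccnb1, -0.13 for Aurkb, -0.28 and -0.10 for Ccne2, and 0.15 and 0.30 for Cdkn1b. The deviations of same-numbered libraries correlated at -0.05 over 2 pairs, too few to show whether replicate numbers pair the libraries. A replicate block called 0 members, as did every other setting. Without the highest member of each sum, the mitotic to replication ratio was 1.03 and 0.727 with forskolin and 0.73 and 0.754 with cAMP, against 0.707 in the control, higher in every library. Promoter windows cut to 150 bases before the start gave E2F 20%, CHR 37.5%, CCAAT box 67.5%, CRE 5% and its core 35%.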
